A study of Rattus norvegicus with 20 samples.

Results

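Integrins, cadherins, claudins and the other genes of cell adhesion and cell junctions were followed in the lungs of rats that had inhaled crystalline silica. The members are the genes whose name in the array table starts as an integrin, cadherin, protocadherin, claudin, zonula occludens protein, connexin, desmoglein or desmocollin, together with Ocln, F11r, Jam3, Cgn, Ctnna1, Ctnnb1 and Jup, and that were detected (detection p under 0.01) on at least 8 of the 20 arrays. Of 133 matching genes, 5 were left out by name (Cdh5, Cldn5, Cldn10, Gja4 and Gja5), 69 did not pass the detection rule, and 59 remained among the 10488 genes tested in all. These 59 comprise 6 leukocyte integrins, 44 tissue junction and adhesion genes, and 9 genes that carry the letters of the rule but belong to other families. The silica group was 8 male CDF Fisher 344 rats, 3 months old (identifiers 81 to 88), that breathed crystalline silica, a mineral dust, at 15 mg/m3 for 6 h a day on 5 days, and that were killed 16 h after the last of these exposures. The control group was 12 male rats of the same strain and age that breathed air and are listed on the same schedule. Their identifiers form 3 runs of 4 rats, 89 to 92, 105 to 108 and 137 to 140, and the first run continues the identifiers of the silica rats. Each array measured unsorted lung RNA of 1 rat, so the data cover 1 sex, 1 dose and 1 time, and fewer cells of a type cannot be told apart from less RNA per cell.

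Integrins are paired alpha and beta subunits that hold cells to the matrix or to other cells. Leukocytes carry their own set, built on the beta subunits Itgb2 and Itgb7 and the alpha subunit Itga4, with which they stop on vessel walls and enter tissue. In the epithelium of airways and alveoli, cadherins and their cytoplasmic partners, the catenins, form adherens junctions. Claudins and occludin seal tight junctions against fluid, zonula occludens proteins anchor them to actin, and connexins form gap junction channels between neighbouring cells. Protocadherins are relatives of the cadherins that are best known from neurons.

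The members were measured by 1 probe each, with 19 to 66 beads behind a value, and 49 of the 59 were detected on all 20 arrays. The arrays had median raw intensities of 67.0 to 98.6, and between 9434 and 10840 genes were detected per array. Defining genes of the labelled tissue were present: the surfactant gene Sftpc averaged a log2 intensity of 14.10 ± 0.08 in silica and 14.06 ± 0.10 in air lungs, and the club cell gene Scgb1a1 averaged 14.28 ± 0.09 in silica and 14.27 ± 0.09 in air lungs (SD, n = 8 and 12). Within a group, a member's SD ranged from 0.043 to 0.306 on the log2 scale in silica lungs and from 0.056 to 0.301 in air lungs. All values below are log2 intensities after background correction and normalization, and a fold change is a difference of their means, which understates the change of dim genes. A gene is said to have risen or fallen where limma's moderated test gave a p under 0.05 after Benjamini-Hochberg adjustment across the whole set of tested genes. The labels do not say whether the rats of a group were exposed or processed together.

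Silica lungs and air lungs were compared to see which adhesion genes respond right after exposure. Of the 59 members 24 changed, 9 upward and 15 downward, a share of 40.7%, where 24.5% of all genes tested changed, 11.7% upward and 12.7% downward. The changes were small: sizes among the 24 ran from 0.0951 to 0.677 on the log2 scale with a median of 0.31, and the median size among all genes that changed was 0.25. With the background correction used here, only Cdh17 reached a 1.5-fold change. The leukocyte integrins and the tissue genes were set side by side. Of the 6 leukocyte integrins 3 rose and 1 fell, with a median log2 fold change of 0.12, and of the 44 tissue genes 6 rose and 13 fell, with a median of −0.07, beside −0.02 over all genes tested. All 9 tissue integrins and 10 of 11 protocadherins had negative fold changes, as did 5729 of the 10488 genes tested. Against air rats 89 to 92 alone 8 of 9 and 9 of 11 were negative. The tissue genes that rose were a cadherin, a catenin, a claudin, a connexin and 2 tight junction proteins.

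**Figure D1:**
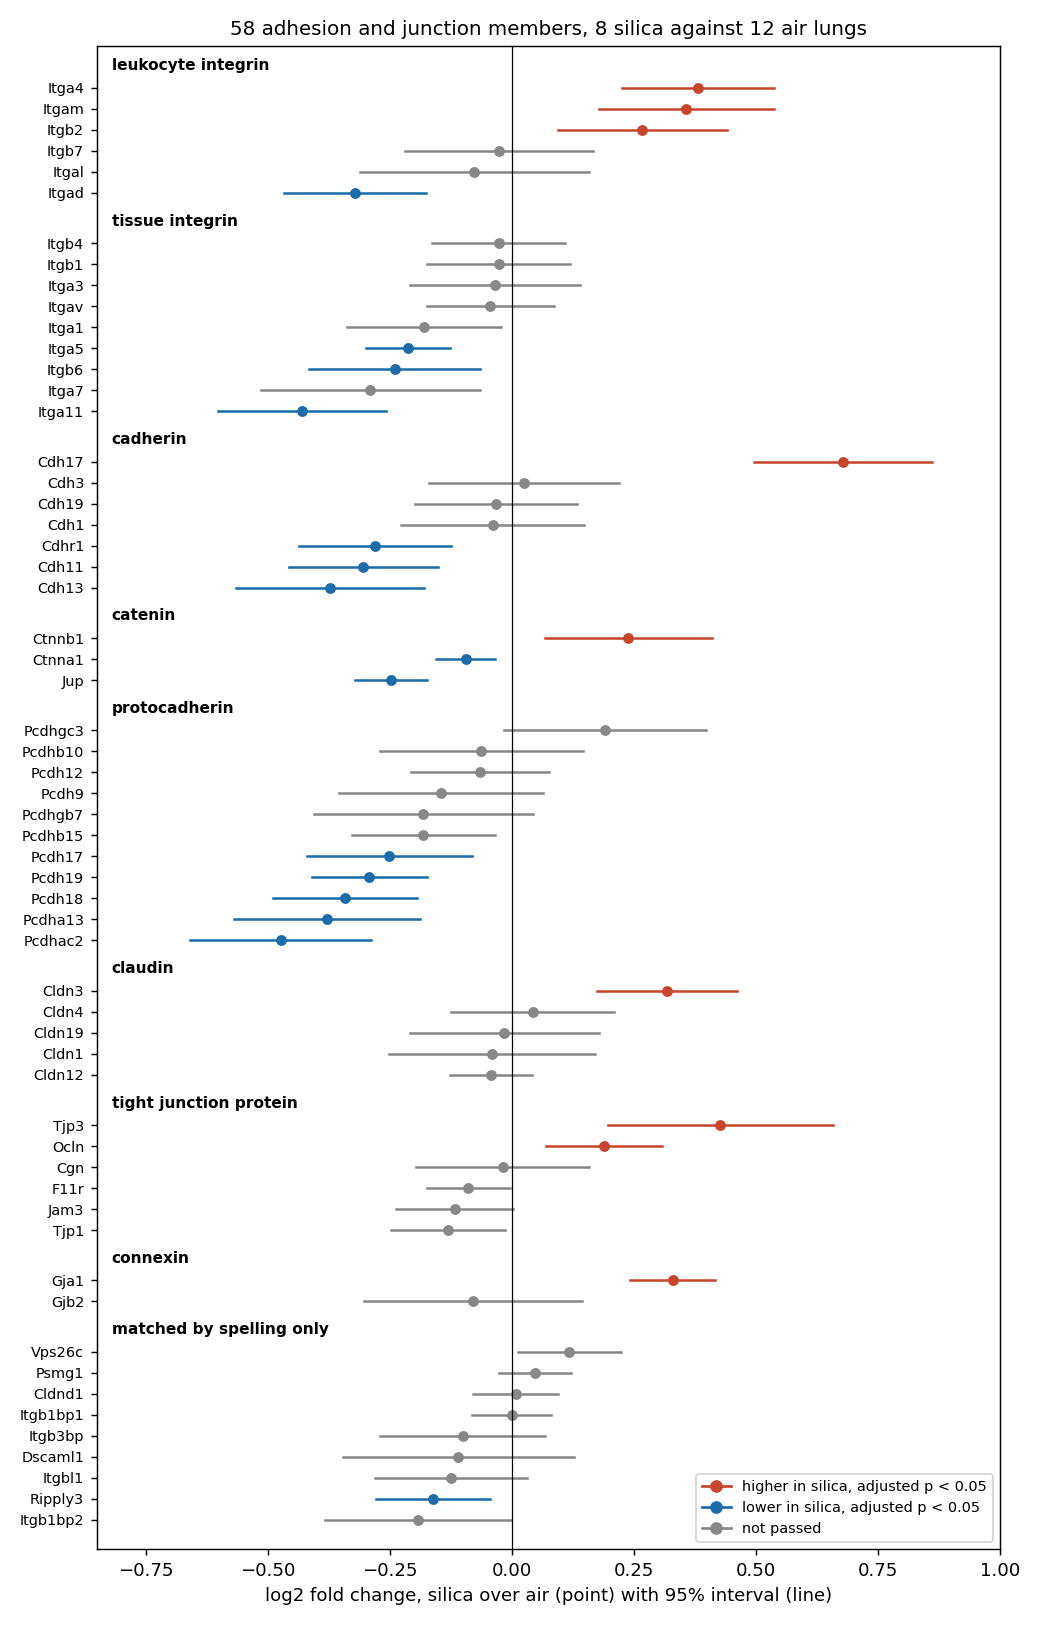
Log2 fold change of silica over air for 58 of the 59 members, grouped by family (point: estimate from 8 silica and 12 air lungs; line: 95% interval of the limma fit; red: higher and blue: lower in silica at adjusted p under 0.05; grey: not passed). The points run from −0.47 for Pcdhac2 to 0.68 for Cdh17, with every tissue integrin left of 0.

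Among the leukocyte integrins, the alpha subunit Itga4 and both chains of the Itgam-Itgb2 receptor rose, and Itgad fell. Itga4 (array identifier ILMN_1351118) pairs with Itgb1 or Itgb7 and binds Vcam1 and fibronectin. Its log2 intensity had a lowest, median and highest value of 8.77, 8.97 and 9.17 in silica lungs, against 8.19, 8.57 and 8.86 in air lungs. The groups overlapped, but 5 of 8 silica rats lay above every air rat and all 8 above the air median. The rise was 0.38 ± 0.075 (SE; 1.30-fold, limma adjusted p = 0.000654). Itgam (ILMN_1365381) is the alpha chain of the complement receptor of neutrophils and macrophages. It ran from 6.29 through a median of 6.62 to 6.95 in silica lungs, against 5.88, 6.24 and 6.53 in air lungs, a rise of 0.36 ± 0.09 (1.28-fold, adjusted p = 0.00403), with 4 of 8 silica rats above every air rat. Itgb2 (ILMN_1366766), the beta chain that it shares with Itgal and Itgad, had values of 8.72, 8.98 and 9.14 in silica lungs, against 8.30, 8.71 and 8.97 in air lungs. Here too 4 of 8 silica rats exceeded every air rat, and the rise was 0.27 ± 0.08 (1.20-fold, adjusted p = 0.0221). Without silica rat 83 (replicate 3), the fold change of Itgb2 was 0.24 (adjusted p = 0.0534). Its call was also lost with the run of identifiers as a random block (0.24, adjusted p = 0.0573) or fixed block (0.11, adjusted p = 0.62) and with median scaling (0.21, adjusted p = 0.15). With the fixed block Itgam missed the threshold as well (0.35, adjusted p = 0.0884).

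Itgad (ILMN_1350805) codes for another alpha chain that pairs with Itgb2, known from macrophages of the spleen. Its lowest, median and highest values were 6.37, 6.57 and 6.77 in silica lungs, against 6.63, 6.91 and 7.07 in air lungs. All 8 silica rats were below the air median and 5 were below every air rat, and the fall was −0.32 ± 0.07 (adjusted p = 0.00171). The remaining pair did not pass. Itgal, the alpha chain of the lymphocyte receptor for Icam1, averaged 5.87 ± 0.22 in silica and 5.95 ± 0.29 in air lungs (adjusted p = 0.664). Itgb7, the beta chain of gut-homing lymphocytes, averaged 8.24 ± 0.16 in silica and 8.27 ± 0.25 in air lungs (adjusted p = 0.863). Itgax was not analysed here.

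**Figure D2:**
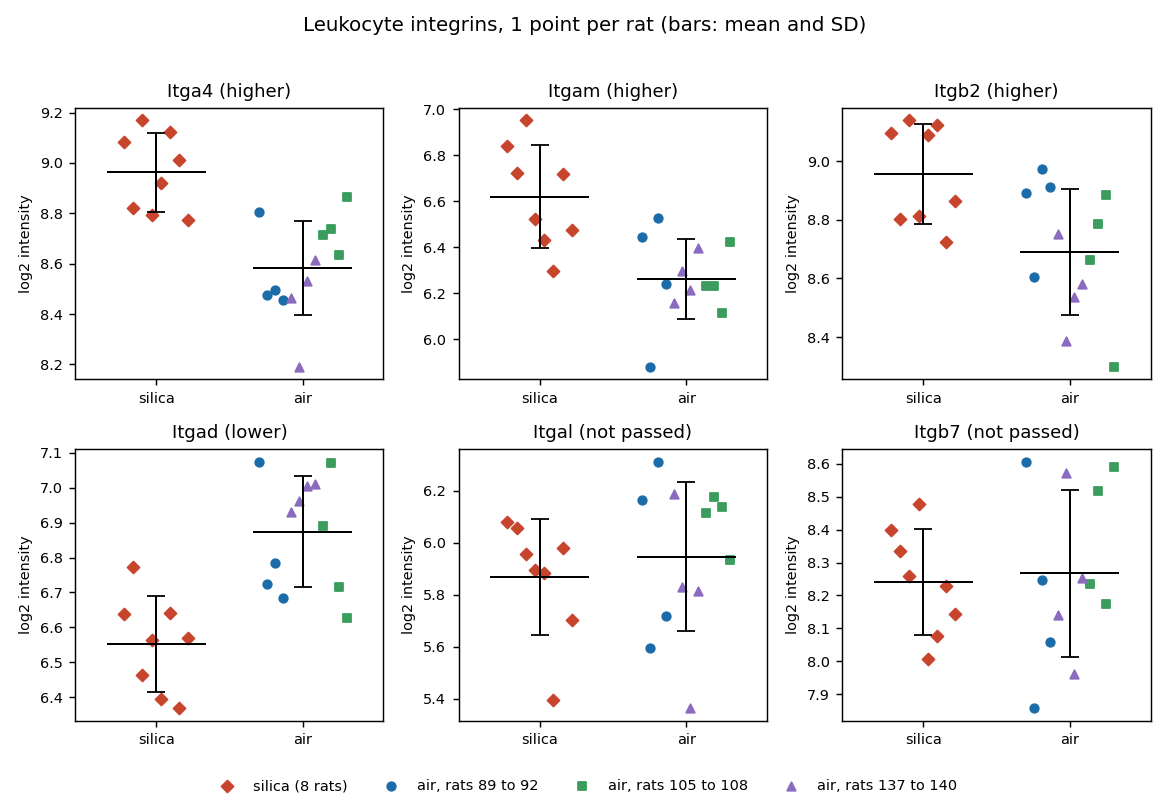
Normalized log2 intensity (vertical axes) of the 6 leukocyte integrins in 8 silica and 12 air lungs, 1 point per rat, with the air rats coloured by run of identifiers (horizontal line and bar: mean and SD). Itga4, Itgam and Itgb2 are higher and Itgad lower in silica, with overlap in each panel, while Itgal and Itgb7 spread over the same range in both groups.

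Markers of white blood cells moved alongside, where 11.7% of all genes tested rose and 12.7% fell. Of 8 neutrophil markers tested 7 rose, and their summed normalized intensity ran from 5130 to 7216 in silica lungs and from 1794 to 2952 in air lungs. Of 5 macrophage and monocyte markers 4 rose (sums of 5072 to 5978 in silica and 2669 to 4633 in air lungs). In contrast, 7 of 9 T and B lymphocyte markers fell (1872 to 2365 in silica and 2265 to 3259 in air lungs), as did 3 of 4 natural killer cell markers (3760 to 4427 in silica and 4315 to 5566 in air lungs). The neutrophil genes S100a9, Mpo and Ngp and the macrophage genes Cd163, Marco and Msr1 did not pass the detection rule. Ptprc, which all leukocytes carry, had a log2 fold change of 0.16 ± 0.11 (adjusted p = 0.308). The part that such cells had in the integrin values was not tested.

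Within each group, Itga4, Itgam and Itgb2 were set against the summed neutrophil and the summed macrophage markers, 12 relations in all, chosen after the values had been seen. Among the 12 air rats Itgb2 followed the macrophage sum, with a Pearson r of 0.884 (permutation p = 4e-05, Benjamini-Hochberg 0.00048) and a Spearman rho of 0.923 (permutation p = 6e-05, Benjamini-Hochberg 0.00072). Without the 2 air rats farthest from the median sum, r was 0.845. With the neutrophil sum r was 0.737 (permutation p = 0.0056, Benjamini-Hochberg 0.0336), rho was 0.818 (permutation p = 0.00188, Benjamini-Hochberg 0.0113), and r without the 2 farthest rats was 0.73. Among the 8 silica rats, Itgb2 had an r of −0.55 with the macrophage sum (exact permutation p = 0.146, Benjamini-Hochberg 0.533) and rho of −0.429 (exact permutation p = 0.299, Benjamini-Hochberg 0.652), and r was −0.069 without the 2 farthest rats. With the neutrophil sum r was 0.078 in silica rats (exact permutation p = 0.881) and rho was 0.524 (exact permutation p = 0.197). Without the 2 farthest rats r was 0.74, which was not tested. In silica rats the same removal moved r from 0.015 to 0.81 for Itga4 with the neutrophil sum. For Itgam with the macrophage sum it moved r from 0.528 to 0.846. With the other sum r moved from −0.111 to 0.123 for Itga4 and from −0.128 to 0.353 for Itgam. Among air rats r with the macrophage sum moved from −0.062 to 0.189 for Itga4 and from 0.284 to 0.003 for Itgam. With the neutrophil sum it moved from −0.114 to −0.006 and from 0.35 to 0.337. An r after removal rests on fewer rats, picked by the sum itself, and was not tested. The difference between silica and air rats in the r of Itgb2 was not tested. The r in air rats was taken over all 12, with the runs of identifiers not separated. Against the air run that adjoins the silica identifiers alone, the fold change was 0.11 for Itgb2, beside 0.27 against all 12. For the macrophage markers Cd68 and Cd14 it was 0.67 and 0.45, beside 0.92 and 0.65. The macrophage marker Adgre1 went the other way, at −0.16 beside −0.17. A run of 4 air rats is too small for an r of its own, so the part of the runs in the r of air rats was not tested. The relations of Itga4 and Itgam did not pass in either group.

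Promoters of 39 members are held in a RefSeq table of the rat assembly GRCr8, from 250 bases before to 50 after the gene start, and those of 3 leukocyte integrins are among them. The promoters of the risen Itgam and Itga4 are shown because PU.1 is a factor of myeloid cells that binds a GAGGAA core. They lie at chr1:192089342-192089641 and chr3:84569765-84570064, both on the plus strand. Capitals mark GAGGAA on either strand (TTCCTC on the printed one).
Itgam: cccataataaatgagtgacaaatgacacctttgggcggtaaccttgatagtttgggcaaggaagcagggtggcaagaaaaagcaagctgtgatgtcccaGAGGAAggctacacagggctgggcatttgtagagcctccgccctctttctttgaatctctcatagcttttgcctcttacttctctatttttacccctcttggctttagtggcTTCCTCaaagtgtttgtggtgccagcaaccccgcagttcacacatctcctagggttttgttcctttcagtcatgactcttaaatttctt
Itga4: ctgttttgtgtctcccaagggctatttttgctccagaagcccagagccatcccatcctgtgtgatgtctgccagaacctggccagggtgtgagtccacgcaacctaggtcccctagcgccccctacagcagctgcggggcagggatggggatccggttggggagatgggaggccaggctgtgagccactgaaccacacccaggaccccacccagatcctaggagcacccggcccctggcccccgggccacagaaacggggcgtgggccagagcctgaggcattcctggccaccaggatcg
Itgam held 2 matches, whose first bases lie at −151 and −39 from the gene start, and Itga4 held 0 in this window. The letters occur in 27.5% of all 27457 promoters of that length and in 20 of the 39 member promoters, namely 4 of 7 of risen members, 5 of 7 of fallen members and 1 of 3 of leukocyte integrins. A match is a description of the letters and not a binding site.

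Of the 9 tissue integrins 3 fell and 0 rose in limma's test, where 12.7% of all genes tested fell and 11.7% rose. The median log2 fold change of the 9 was −0.18. At an unadjusted p under 0.05, 5 were lower and 0 higher. All 9 were negative under each scaling and background correction tried, 8 against air rats 89 to 92 alone and 7 against air rats 137 to 140 alone. Itga11 (ILMN_1368972), the alpha subunit of a collagen receptor of fibroblasts, had a lowest, median and highest value of 6.43, 6.57 and 6.89 in silica lungs, against 6.70, 7.004 and 7.31 in air lungs. Of the 8 silica rats 6 lay below every air rat, and the fall was −0.43 ± 0.08 (1.35-fold, adjusted p = 0.000577). Itga5, the alpha subunit of the main fibronectin receptor, varied little within a group and averaged 9.08 ± 0.05 in silica and 9.29 ± 0.10 in air lungs. It fell by 0.21 on the log2 scale (SE 0.041, adjusted p = 0.000562), with 7 of 8 silica rats below every air rat. Itgb6, the epithelial beta subunit that with Itgav releases active transforming growth factor beta, averaged 10.08 ± 0.10 in silica and 10.32 ± 0.25 in air lungs (log2 fold change −0.24 ± 0.08, adjusted p = 0.0409). Its call was lost in 11 of the 20 fits that leave out 1 rat (silica rats 81, 82, 83, 85 and 86; air rats 91, 92, 105, 107, 137 and 138), with adjusted p from 0.0503 to 0.0827.

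The shared partners of these receptors did not pass. Itgb1, the beta subunit common to most matrix receptors, averaged 11.59 ± 0.13 in silica and 11.61 ± 0.19 in air lungs, and Itgav averaged 7.83 ± 0.14 in silica and 7.88 ± 0.13 in air lungs. The collagen receptor subunit Itga1 had a fold change of −0.18 ± 0.08 (adjusted p = 0.087), and Itga3 and Itgb4, laminin receptor subunits of epithelium, had −0.04 ± 0.08 and −0.03 ± 0.07. Itga7, the laminin receptor subunit of muscle, singled out after its values were seen, missed the threshold at −0.29 ± 0.11 (adjusted p = 0.0531), with an SD of 0.158 in silica and 0.301 in air lungs. Cardiac markers varied widely between lungs: the summed intensity of 4 of them ran from 145.4 to 4978 in silica and from 163.2 to 7006 in air lungs, and their part in Itga7 was not tested. Beside 12.7% of all genes tested, 3 of 5 smooth muscle and fibroblast markers fell (Col1a1 by 0.50, Col1a2 by 0.25 and Des by 0.30 on the log2 scale). Their part in the fall of Itga11 was not tested either.

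Cadherins split by gene. With the background correction used here, the highest fold change of all members belonged to Cdh17 (ILMN_1361578), a cadherin first described in rat liver and intestine. It had 6.18, 6.46 and 6.64 as lowest, median and highest value in silica lungs, against 5.41, 5.80 and 6.06 in air lungs. The groups did not overlap, as held for 1.83% of all genes in the upward direction. The rise was 0.68 ± 0.09 (1.60-fold, adjusted p = 5.98e-06), from a dim probe that was detected on 8 of 8 silica and 11 of 12 air arrays. Cdh17 passed under other processing, but at a smaller size. The log2 fold change was 0.42 without background correction, 0.28 with the deposited log2 values and 0.11 with limma's default neqc call. With that neqc call Jup, at −0.26, changed more than Cdh17. Cdh13 (ILMN_1366675), a cadherin held to the membrane by a lipid anchor and known from vessels, fell. It ran from 5.87 through 6.24 to 6.42 in silica lungs, against 6.21, 6.62 and 6.88 in air lungs, and 4 silica rats were below every air rat (−0.37 ± 0.09, 1.30-fold, adjusted p = 0.005). Cdh11, the cadherin of mesenchymal cells, averaged 6.33 ± 0.12 in silica and 6.63 ± 0.18 in air lungs (−0.30 ± 0.07, adjusted p = 0.00387). Cdhr1 (PCDH21 in the table), known from photoreceptors, averaged 6.50 ± 0.11 in silica and 6.78 ± 0.19 in air lungs (−0.28 ± 0.08, adjusted p = 0.00816). E-cadherin, Cdh1, the main cadherin of lung epithelium, averaged 10.28 ± 0.21 in silica and 10.32 ± 0.23 in air lungs; its difference of −0.04 had a 95% interval of −0.23 to 0.15 (adjusted p = 0.791). Cdh3 and Cdh19 did not pass either, at 0.02 ± 0.09 and −0.03 ± 0.08, and Cdh2 was not analysed here.

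All 3 catenins changed, where 24.5% of all genes tested did, and not in the same direction. The calls on Ctnna1 and Ctnnb1 depended on the settings. Jup (ILMN_1359114), plakoglobin, which links cadherins to the cytoskeleton in adherens junctions and desmosomes, had values of 11.22, 11.28 and 11.36 in silica lungs, against 11.43, 11.52 and 11.68 in air lungs. Each silica rat was below each air rat, as held for 0.744% of all genes in the downward direction, and the fall was −0.25 ± 0.04 (1.19-fold, adjusted p = 1.93e-05). Ctnna1, alpha-catenin, which connects the complex to actin, averaged 13.16 ± 0.04 in silica and 13.26 ± 0.06 in air lungs (−0.10 ± 0.03, adjusted p = 0.0205). Its call was lost with median scaling (adjusted p = 0.477), with the fixed block (−0.06, adjusted p = 0.455) and without the detection filter (adjusted p = 0.0769). Ctnnb1, beta-catenin, the partner of cadherins and effector of Wnt signals, averaged 9.16 ± 0.16 in silica and 8.92 ± 0.22 in air lungs (0.24 ± 0.08, adjusted p = 0.0381). The call on Ctnnb1 was lost in 9 of the 20 fits without 1 rat (silica rats 81, 83, 85 and 87; air rats 106 and 137 to 140), with adjusted p from 0.0537 to 0.0965. It was also lost with the random block (0.21, adjusted p = 0.0919), the fixed block (0.07, adjusted p = 0.749) and median scaling (0.17, adjusted p = 0.265). Of 12 epithelial markers given beside these genes 5 fell and 1 rose, where 12.7% of all genes tested fell and 11.7% rose. The riser was the surfactant protein gene Sftpd (0.58 ± 0.09). The part of these markers in the catenin values was not tested.

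Of the 11 protocadherins 5 fell and 0 rose in limma's test, where 12.7% of all genes tested fell and 11.7% rose. The median log2 fold change of the 11 was −0.18. At an unadjusted p under 0.05, 6 were lower and 0 higher. Against air rats 89 to 92 alone 9 of 11 were negative, and against each other run 10 were. Pcdhgc3 passed as higher against air rats 137 to 140 alone (0.35, adjusted p = 0.0225). Pcdhac2 (ILMN_1364634) had 6.77, 6.85 and 7.21 in silica lungs as lowest, median and highest value, against 7.01, 7.41 and 7.69 in air lungs. Of the silica rats 6 lay below every air rat (−0.47 ± 0.09, 1.39-fold, adjusted p = 0.00045). Pcdha13 (ILMN_1368849) had 5.82, 6.04 and 6.47 in silica lungs, against 6.10, 6.52 and 6.74 in air lungs, with 5 silica rats below every air rat (−0.38 ± 0.09, 1.30-fold, adjusted p = 0.00396). Both belong to the clustered protocadherins, whose transcripts share constant exons at their end, so that a probe there could read several of them and the gene named is uncertain. Both names were also synonyms of the same current gene symbol. They are counted as separate members here, although they may share a signal. The other alpha-cluster entries were detected on at most 2 arrays and were set aside. Pcdh18 (ILMN_1357835), a non-clustered member, had 7.55, 7.84 and 8.04 in silica lungs, against 7.92, 8.09 and 8.43 in air lungs. All but 1 of the silica rats, 7 of 8, were below every air rat (−0.34 ± 0.07, 1.27-fold, adjusted p = 0.00105). The related Pcdh19 averaged 9.57 ± 0.15 in silica and 9.87 ± 0.12 in air lungs (adjusted p = 0.000593), and Pcdh17 averaged 7.82 ± 0.18 in silica and 8.07 ± 0.20 in air lungs (adjusted p = 0.0272). Without silica rat 83 or 85, Pcdh17 had an adjusted p of 0.0689 or 0.0655. The 6 others had fold changes from −0.18 (Pcdhb15 and Pcdhgb7) to 0.19 (Pcdhgc3) and did not pass. Beside 12.7% of all genes tested, 3 of 5 endothelial markers fell (Emcn by 0.34, Vwf by 0.22 and Cldn5 by 0.15 on the log2 scale). Their part in the values of vessel cadherins and protocadherins was not tested.

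**Figure D3:**
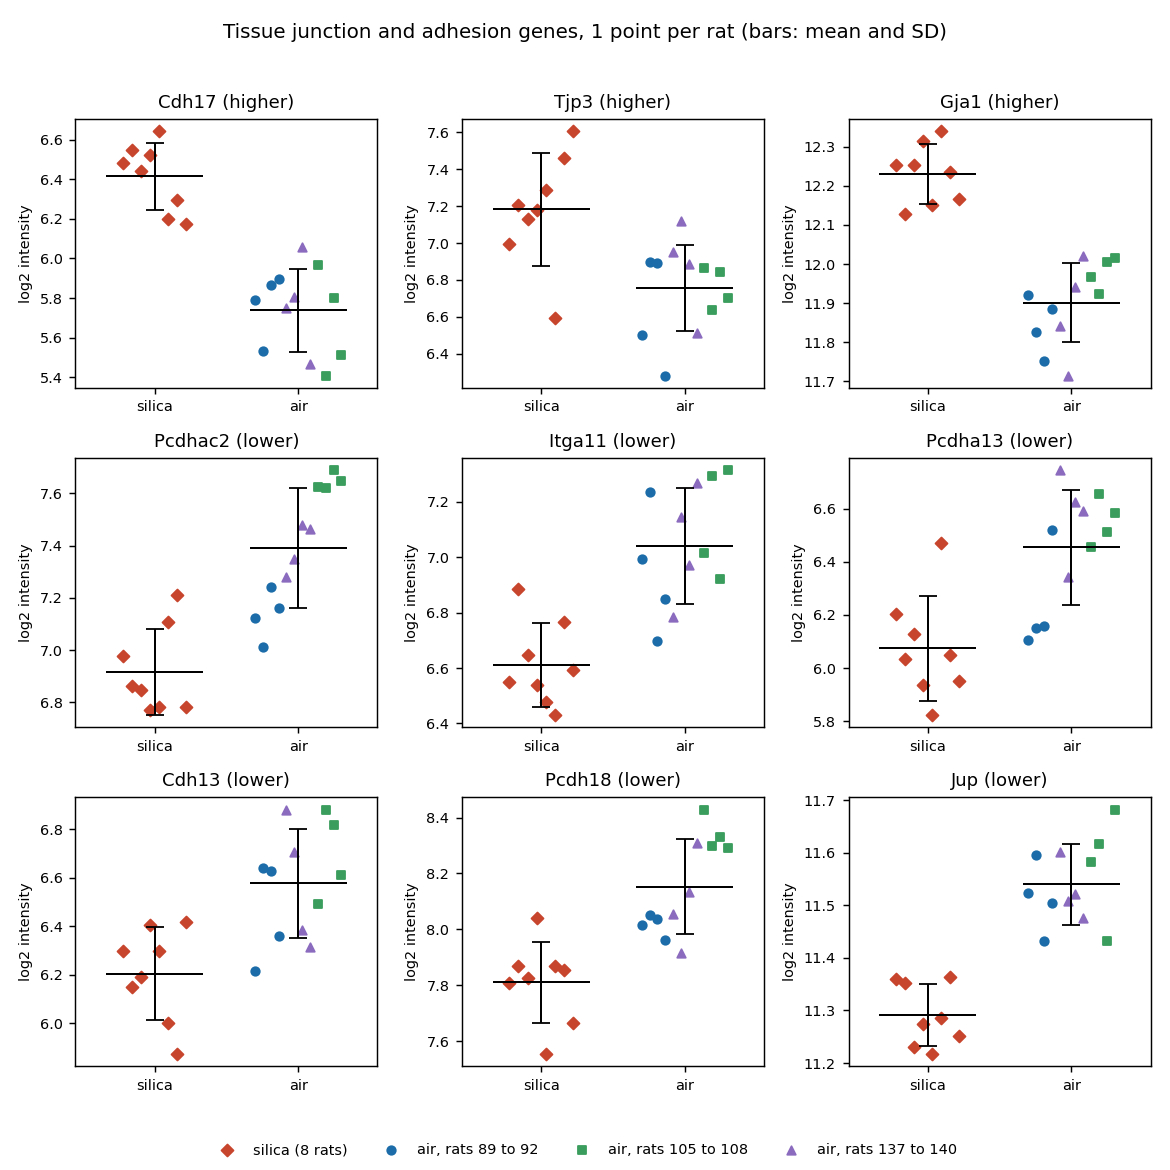
Normalized log2 intensity (vertical axes) of the 8 tissue genes with the highest fold changes among those that passed, and of Jup, in 8 silica and 12 air lungs, 1 point per rat, with air rats coloured by run of identifiers (horizontal line and bar: mean and SD). Cdh17, Gja1 and Jup show no overlap between the groups, and in Pcdhac2 and Pcdh18 the air rats 89 to 92 lie nearer to the silica rats than the air rats 105 to 108 do.

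Of the 14 claudins, tight junction proteins and connexins 4 rose and 0 fell in limma's test, a share of 28.6% beside the 24.5% of all genes that changed, and 9 of the 14 had negative fold changes. At an unadjusted p under 0.05, Tjp1 and F11r were lower. Tjp3 (ILMN_1350864), a zonula occludens protein that ties tight junction proteins to the cytoskeleton, had values of 6.60, 7.19 and 7.61 in silica lungs, against 6.28, 6.85 and 7.12 in air lungs. Of the silica rats 6 were above every air rat and 1 was below the air median, and the rise was 0.43 ± 0.11 (1.34-fold, adjusted p = 0.00693). Cldn3, a sealing claudin of alveolar epithelium, averaged 11.09 ± 0.18 in silica and 10.78 ± 0.15 in air lungs, with 6 silica rats above every air rat (0.32 ± 0.07, adjusted p = 0.00161). Ocln, occludin, averaged 8.53 ± 0.13 in silica and 8.34 ± 0.12 in air lungs (0.19 ± 0.06, adjusted p = 0.0186), and without silica rat 83 (replicate 3) its fold change was 0.15 (adjusted p = 0.0521). The call on Ocln was also lost with the random block (0.16, adjusted p = 0.0548), the fixed block (0.05, adjusted p = 0.76) and median scaling (0.14, adjusted p = 0.268). Gja1 (ILMN_1355543), the most widely expressed connexin, had 12.13, 12.24 and 12.34 in silica lungs, against 11.72, 11.92 and 12.02 in air lungs. The groups did not overlap, as held for 1.83% of all genes in the upward direction. The rise was 0.33 ± 0.04 (1.26-fold, adjusted p = 4.98e-06).

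Members of these families that did not pass are given next. Cldn4, a claudin of injured alveolar epithelium, averaged 5.95 ± 0.10 in silica and 5.91 ± 0.21 in air lungs (0.04 ± 0.08, adjusted p = 0.744). Cldn1, Cldn12 and Cldn19 had fold changes of −0.04 ± 0.10, −0.04 ± 0.04 and −0.02 ± 0.09. Tjp1, the best known zonula occludens protein, averaged 12.04 ± 0.10 in silica and 12.17 ± 0.15 in air lungs (−0.13 ± 0.06, adjusted p = 0.0949), and it passed with array weights at −0.18 (adjusted p = 0.0208) and without air rat 138 at −0.15 (adjusted p = 0.0429). The junctional adhesion molecules F11r and Jam3 had −0.09 ± 0.04 and −0.12 ± 0.06, and the adaptor Cgn had −0.02 ± 0.09. The connexin Gjb2 had −0.08 ± 0.11. Jam2 and Cldn18 were not analysed here.

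Promoters of 3 junction genes that changed are shown with the letters of a factor group known to act on such genes. Gja1, at chr20:36302314-36302613 on the plus strand, is printed with TGANTCA in capitals, the core of AP-1, a factor of immediate stress responses. For Ocln, at chr2:33441149-33441448, and Jup, at chr10:85827380-85827679, both on the minus strand, capitals mark CAGGTG, the E-box that the repressors Snai1, Zeb1 and Zeb2 bind, on either strand.
Gja1: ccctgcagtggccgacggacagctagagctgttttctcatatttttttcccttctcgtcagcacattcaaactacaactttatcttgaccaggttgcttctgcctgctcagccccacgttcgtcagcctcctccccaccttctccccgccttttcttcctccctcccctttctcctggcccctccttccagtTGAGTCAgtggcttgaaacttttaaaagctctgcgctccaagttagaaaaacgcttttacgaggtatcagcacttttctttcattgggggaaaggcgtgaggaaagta
Ocln: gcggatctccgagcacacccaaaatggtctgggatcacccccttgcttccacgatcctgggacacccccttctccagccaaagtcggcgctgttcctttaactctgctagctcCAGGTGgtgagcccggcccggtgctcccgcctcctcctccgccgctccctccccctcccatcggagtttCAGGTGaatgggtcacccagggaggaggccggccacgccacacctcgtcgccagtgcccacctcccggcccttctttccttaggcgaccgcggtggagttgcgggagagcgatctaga
Jup: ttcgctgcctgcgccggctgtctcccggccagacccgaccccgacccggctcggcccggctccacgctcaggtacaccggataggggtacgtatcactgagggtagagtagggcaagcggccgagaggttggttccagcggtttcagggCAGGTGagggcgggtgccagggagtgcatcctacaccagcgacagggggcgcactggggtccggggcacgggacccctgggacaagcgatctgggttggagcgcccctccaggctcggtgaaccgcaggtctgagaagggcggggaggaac
The AP-1 letters start at −58 in Gja1 and occur in 2 of 39 member promoters (Gja1 and F11r), beside 7.33% of all 27457. Ocln held 2 E-boxes, at −137 and −68, and Jup held 1, at −101. The E-box was present in 10 of 39 member promoters and in 18.7% of all, with 3 of 7 promoters of risen members and 3 of 7 of fallen members. The AP-1 and E-box letters were searched on both strands, and neither motif contains another of the 3 searched.

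Among the repressors that bind the E-box, 3 of the 5 in the list were tested and all changed, where 24.5% of all genes tested did. Zeb1 averaged 9.04 ± 0.10 in silica and 9.44 ± 0.09 in air lungs (−0.40 ± 0.05, 1.32-fold, adjusted p = 8.41e-07), and Snai1 averaged 9.67 ± 0.08 in silica and 9.96 ± 0.16 in air lungs (−0.28 ± 0.06, adjusted p = 0.000978). Zeb2 averaged 7.16 ± 0.21 in silica and 6.85 ± 0.29 in air lungs (0.31 ± 0.11, adjusted p = 0.043). Of 27 junction adaptors tested, 7 fell and 1 rose, where 12.7% of all genes tested fell and 11.7% rose. Cadm1, a cell adhesion molecule of epithelium, fell by 0.25, Esam, a junction molecule of endothelium, by 0.20, Evpl, a plakin of the cornified envelope, by 0.30, and Pard3, a polarity protein, by 0.22 on the log2 scale. The riser was Cgnl1, a cingulin relative, at 0.32 ± 0.09 (adjusted p = 0.0138), singled out after its values were seen. Against air rats 89 to 92 alone Zeb1 passed (adjusted p = 0.00424), while Snai1 (0.229) and Zeb2 (0.129) did not. Of the 27 adaptors 3 passed there, where 6.18% of all genes tested did. Cadm1 (adjusted p = 0.00703) and Esam (0.0261) were among the 3. Evpl (0.205), Pard3 (0.183) and Cgnl1 (0.314) did not.

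Genes of integrin activation and focal adhesion moved both ways. Of 21 such genes tested 2 rose and 5 fell, where 11.7% of all genes tested rose and 12.7% fell. The median log2 fold change of the 21 was −0.08. Fermt3, the kindlin of blood cells, averaged 9.19 ± 0.04 in silica and 8.95 ± 0.12 in air lungs (0.23 ± 0.05, adjusted p = 0.000738). Its counterpart in tissue, Fermt2, averaged 12.47 ± 0.10 in silica and 12.70 ± 0.11 in air lungs (−0.23 ± 0.05, adjusted p = 0.000754). Lims1, an adaptor of the integrin-linked kinase, rose by 0.58 ± 0.13, and the focal adhesion adaptor Bcar1 fell by 0.27 on the log2 scale. The talin Tln1 had −0.09 ± 0.04 (adjusted p = 0.0778). Against air rats 89 to 92 alone 0 of the 21 passed, where 6.18% of all genes tested did. There Fermt3 had 0.18 (adjusted p = 0.0998) and Fermt2 −0.16 (adjusted p = 0.12).

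Among 10 ligands and selectins tested, 1 rose and 2 fell, where 11.7% of all genes tested rose and 12.7% fell. Cd44, the hyaluronan receptor, rose by 0.27 ± 0.07, while vitronectin, Vtn, a ligand of Itgav receptors, fell by 0.36 and Icam2, an endothelial ligand of Itgal-Itgb2, fell by 0.15 on the log2 scale. The main endothelial ligands of the risen integrins, named here after their values were seen, did not pass. Vcam1 averaged 10.26 ± 0.09 in silica and 10.29 ± 0.12 in air lungs (adjusted p = 0.717), and Icam1 averaged 12.15 ± 0.10 in silica and 12.17 ± 0.08 in air lungs (adjusted p = 0.76).

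The 9 genes that match the rule by spelling only are described for completeness. Ripply3 (DSCR6 in the table), a transcriptional corepressor, averaged 10.34 ± 0.14 in silica and 10.50 ± 0.12 in air lungs (−0.16 ± 0.06, adjusted p = 0.0377), a call that was lost in 8 of the 20 fits without 1 rat (silica rats 81, 83 and 85; air rats 105, 108 and 138 to 140), with adjusted p from 0.0522 to 0.1. The other 8 had fold changes from −0.19 (Itgb1bp2, a muscle partner of Itgb1) to 0.12 (Vps26c) and did not pass.

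The control runs bear on how firmly these differences stand. When the controls were restricted to air rats 89 to 92, the run that adjoins the silica identifiers, 6.18% of all genes changed and 6 of the 59 members did. These were Cdh17 (0.64, adjusted p = 0.00169), Gja1 (0.38, 0.000308), Jup (−0.22, 0.00931), Itga4 (0.40, 0.0136), Cldn3 (0.37, 0.0287) and Itga7 (−0.55, 0.0129), and Itga7 had not passed against all 12. The other 19 members that had changed against all air rats kept their sign there without passing: Itgb2 had 0.11 (adjusted p = 0.57), Itgam 0.35 (0.152), Ocln 0.05 (0.779) and Ctnnb1 0.07 (0.73). Against air rats 105 to 108 alone, where 17.4% of all genes changed, 19 members did, and against air rats 137 to 140 alone, where 20.7% changed, 21 did. All 24 had the same sign in the 3 comparisons, and Cdh17, Gja1 and Jup passed in each. These comparisons share the silica arrays. With the run as a fixed block 8 of the 24 calls held, those of Cdh17, Gja1, Jup, Itga4, Cldn3, Tjp3, Itga5 and Pcdh19. The fixed block gives the same fold changes as air rats 89 to 92 alone, and only SE and p differ, so it is not a separate check. With the run as a random block 18 held, without those of Itgb2, Ctnnb1, Ocln, Itgb6, Pcdh17 and Ripply3. Median scaling lost the same 6 and also those of Ctnna1 and Cldn3. Between the 3 runs of air rats themselves, 0.162% of all genes differed in limma's moderated F test, and 1 member, Pcdhac2, was among them (adjusted p = 0.0348). Its fold change was −0.22 against air rats 89 to 92, −0.73 against 105 to 108 and −0.48 against 137 to 140.

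**Figure D4:**
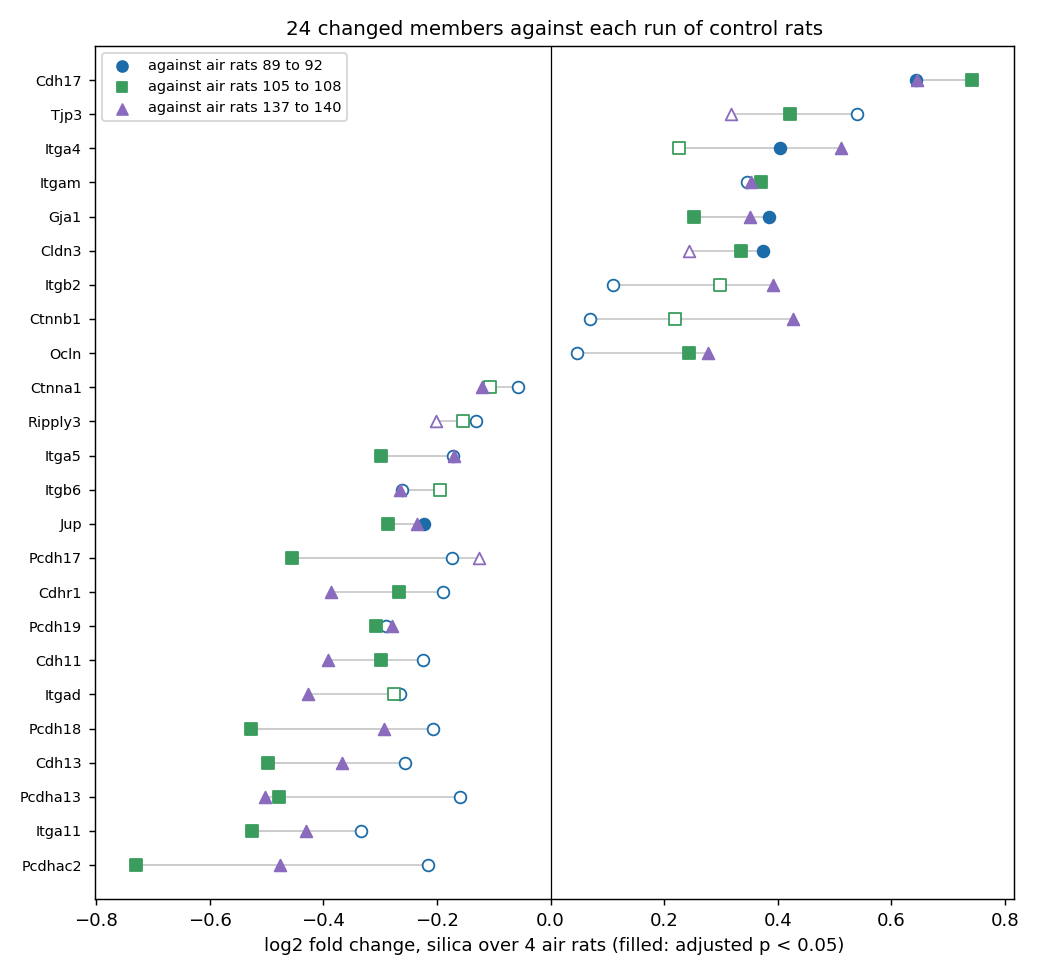
Log2 fold change (horizontal axis) of the 24 members that changed, for 8 silica rats over each run of 4 air rats (symbols by run; filled: adjusted p under 0.05; open: not passed). All symbols of a gene lie on 1 side of 0, Cdh17, Gja1 and Jup are filled for each run, and Pcdhac2 spreads from −0.73 to −0.22.

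Of the 69 matching genes set aside, 57 were detected on no array. None of the 5 desmosomal cadherins on the array met the rule. Dsg2, desmoglein of simple epithelia, was detected on 5 of 8 silica and 0 of 12 air arrays, and Cldn11 on 2 of 8 silica and 5 of 12 air arrays. The members nearest to the limit were Pcdh9, detected on 10 arrays, and Cldn1, detected on 11.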

How the data were processed

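RNA of 20 rat lungs was measured on Illumina bead arrays, with biotin-labelled cRNA made from 375 ng of RNA, per the labels. The mean bead intensity per gene was deposited without background subtraction or normalization, as judged from the values; BeadStudio, lumi and limma are named in the submitters' processing notes. Detection p-values were deposited by the authors for each gene and array. The authors' deposited log2 values, normalized between arrays in a way not stated, correlated with log2 intensity across genes at 0.994 to 0.998 per array. With each gene's mean over arrays subtracted, the correlation was 0.679 to 0.982 per array. The deposited values served as an alternative. Another 20 columns of per-sample values (bead standard errors) were not used.

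Intensities were corrected with normexp (offset 16) in limma 3.58.1 and R 4.3.3, with the control mean (50.4 to 74.0) and SD (7.48 to 14.3) of each array inferred from detection p-values of genes with 1 probe, and quantile-normalized. The 10488 genes detected (p under 0.01) on 8 or more arrays were fitted with lmFit and eBayes with an intensity trend, 8 silica against 12 air arrays, with 2-sided p-values adjusted by Benjamini-Hochberg over all of them. The steps were tested on simulated data. The number of arrays limits the precision. Old symbols were updated through a RefSeq table of GRCr8, which also gave the promoters. Of the 59 members 57 were given a current symbol. Pcdha13 and Pcdhac2 matched the same current symbol and kept their old names. The values of 1 member are not reported here. Named genes were the leukocyte integrins, up to 6 passing members of smallest p in each other family, passing members of at least 1.25-fold, and a short list of well-known genes; in partner lists, up to 4 passing genes of smallest p. Members and lists were chosen with earlier results of these data known. Alternatives covered the background correction, scaling, filter, variance model, runs of identifiers, replicate numbers and leaving out each rat. Slides and scan dates were not analysed here, so array batches were not tested.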

Additional observations from a re-analysis of the deposited data

Results flagged for a closer look

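In 3 of the 59 members, 1 silica rat lay apart from the other 7 by more than Dixon's limit for 8 values; chance flags about 1 in 20 groups. Cldn19 was 6.174 in silica rat 86 and 5.458 to 5.792 in the other silica rats. Pcdhgc3 was 7.440 in silica rat 87, against 6.823 to 7.102 in the others. Itgb4 was 7.706 in that same rat and 7.233 to 7.431 in the others. None of the 3 genes had passed between silica and air lungs.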

How the results depend on the processing

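The 24 members that changed kept their sign under each alternative run, including each rat left out (Cdh17 is not among the genes detected on all arrays). All 24 passed with limma's default neqc call, without background correction, with an offset of 50, with the deposited log2 values, with the robust variance prior and with array weights. Of the 24, 20 passed without the detection filter, 16 with median scaling and 18 with the run of identifiers as a random block. With median scaling 5 members rose and 10 partner genes changed. Against air rats 89 to 92 alone 6 members changed (4 higher, 2 lower), among them 1 leukocyte integrin and 5 tissue genes (2 lower), and 5 partner genes changed. With the run as a fixed block 9 members changed (5 higher, 4 lower), among them 1 leukocyte integrin and 8 tissue genes (4 lower), and 5 partner genes changed. Against air rats 105 to 108 alone 1 leukocyte integrin, Itgam, changed. Leaving out each rat gave 18 to 25 members changed, 6 to 9 higher and 12 to 16 lower, 3 to 4 leukocyte integrins, 15 to 20 tissue genes (11 to 14 lower) and 18 to 22 partner genes. Without the 3 arrays of highest median intensity, an alternative chosen after seeing the data, 19 members changed.

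Small differences that had not passed changed sign. Itgb7 was 0.0481 against air rats 89 to 92 and with the fixed block, 0.0079 against air rats 137 to 140 and 0.028 with the replicate block, and ranged from −0.0647 to 0.0061 when a rat was left out. Itgb1 was 0.0698 against air rats 137 to 140, 0.0091 with the replicate block and −0.0547 to 0.0073 without 1 rat. Cldn4 was −0.0401 against air rats 137 to 140 and −0.0021 with the replicate block, Itgal was 0.0695 against air rats 137 to 140, and Cdh1 ranged from −0.0746 to 0.0162 without 1 rat. The cause was not tested. The replicate numbers did not pair the rats: same-numbered rats correlated at −0.228 to 0.163, and 0 of 8 silica rats correlated best with its own number. With the replicate block 17 members passed, 16 of the 24 among them, without Cdh13, Ctnna1, Ocln, Tjp3, Itgb6, Pcdh17, Pcdha13 and Ripply3, and 6 of 9 tissue integrins were negative. Dim members such as Cdh17, Pcdha13 and Itgal lie near background, where the offset compresses differences.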
